A study of Drosophila simulans with 22 samples.

Results

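The cellularization genes are 5 genes that the early zygote transcribes while the blastoderm forms cells: *nullo* (FBgn0004143), *Sry-alpha* (FBgn0003510), *slam* (FBgn0043854), *bnk* (FBgn0004389) and *halo* (FBgn0001174). They were taken by their *D. melanogaster* FlyBase number from the deposited table of gene expression, which holds 8460 genes. *Sry-alpha*, *slam*, *bnk* and *halo* were found there. *nullo* has no row in the table and was not analysed here, so 4 genes are described.

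The study profiled promoter activity in whole embryos of *Drosophila simulans*, strain w[501], which is the strain of the reference genome. Flies laid in population cages, and the eggs of each 1-h window were aged, which gave 22 samples from 0-1 h to 21-22 h after laying. The labels give no other genotype and no treatment, and every hour is 1 collection of whole embryos without a replicate. In whole embryos, fewer cells that express a gene and less RNA per cell cannot be told apart.

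The assay, RAMPAGE, captures cDNAs whose 5′ end is complete, and each read then begins where transcription began. A peak of such ends is a cluster of start sites, or TSC, and stands for 1 promoter. Expression is given as RPM, reads scaled to a total of 1000000 per sample. Since each cDNA is counted at its 5′ end, RPM of different genes were compared without a correction for length. All deposited RPM were whole multiples of 1 read, and dividing by that step gave the reads behind each value. The gene table was scaled to totals between 325359 reads at 12-13 h and 17332321 reads at 9-10 h, with a median of 2879693. One read was thus worth 0.0577 to 3.07 RPM, and a floor of 3 reads, used throughout as the level that a count of 0 allows, was 0.173 to 9.22 RPM. Ranges after single values are 95% Wilson intervals on the reads. They cover counting error only, because each hour is 1 sample. The RPM do not show whether duplicate reads had been removed, and where present they would make these intervals too narrow.

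The *Drosophila* embryo begins with rapid nuclear divisions in a shared cytoplasm. When these divisions slow, plasma membrane grows inward between the nuclei at the surface and closes below them, which turns the syncytium into a sheet of cells. Most components of the furrow are supplied by the mother, and a small set of genes that the zygote itself transcribes is needed as well. The roles given below are known from *D. melanogaster*.

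*slam* (slow as molasses) encodes a protein of the furrow tip that is needed for membrane growth. It was at 136 RPM (129 to 143) at 0-1 h, 231 RPM (216 to 247) at 1-2 h, 2184 RPM (2142 to 2226) at 2-3 h and 98.8 RPM (91.6 to 106.6) at 3-4 h. The 2-3 h sample stood 9.47-fold above the 1-2 h sample (exact interval of the ratio 8.83 to 10.2) and 22.1-fold above the 3-4 h sample (20.4 to 23.9). *slam* was the one member that did not fade out: it was at 17.7 RPM at 4-5 h and 12.6 RPM at 5-6 h, and over the 14 samples from 8-9 h on it had a median of 4.66 RPM, a lowest value of 0 RPM at 17-18 h and a highest of 12.3 RPM at 12-13 h. That last value rests on 4 reads, and its interval of 4.78 to 31.6 RPM reaches down to the level of the neighbouring hours.

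*bnk* (bottleneck) encodes a small basic protein that keeps the actin and myosin network at the furrow tips from constricting too early. It was at 100.3 RPM (94.5 to 106.5) at 0-1 h, 66.2 RPM (58.4 to 74.99) at 1-2 h, 2146 RPM (2105 to 2188) at 2-3 h and 11.2 RPM (8.97 to 14.0) at 3-4 h. It was thus the only member that was lower at 1-2 h than at 0-1 h (ratio 0.659, exact interval 0.572 to 0.758), and it then stood 32.4-fold higher at 2-3 h than at 1-2 h (28.6 to 36.96). Its descent was the steepest of the 4 genes. The 3-4 h sample held 0.523% of the 2-3 h level (0.412% to 0.655%). The level of *bnk* was 6.59 RPM at 4-5 h, 3.16 RPM at 5-6 h, then 0.585 RPM at 6-7 h, and the 14 samples from 8-9 h on held 11 reads together, with 0 reads in 9 of them.

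*Sry-alpha* (Serendipity alpha) encodes a membrane-associated protein that keeps actin filaments at the advancing furrows. It was the weakest member in the first 3 hourly samples. It was at 3.72 RPM (2.73 to 5.07) at 0-1 h, 9.72 RPM (7.02 to 13.5) at 1-2 h, 118.5 RPM (109.2 to 128.7) at 2-3 h and 19.5 RPM (16.4 to 23.1) at 3-4 h. The level was 2.61-fold higher at 1-2 h than at 0-1 h (1.62 to 4.21), on 36 reads and 40 reads. This interval overlapped that of the same ratio for *slam* (1.69, 1.55 to 1.84). After 4 h it was almost absent: 1 read was found at 4-5 h and 1 at 6-7 h, and the remaining 16 samples held 0 reads. Over the 14 samples from 8-9 h on, the same floor of 3 reads in the pooled depth was 0.0469 RPM.

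*halo* encodes a regulator of the kinesin-driven transport of lipid droplets, whose net direction changes as cellularization proceeds. It was the strongest member, at 230 RPM (221 to 240) at 0-1 h, 256 RPM (240 to 273) at 1-2 h, 7358 RPM (7282 to 7435) at 2-3 h and 1025 RPM (1001 to 1049) at 3-4 h. The 2-3 h sample stood 28.8-fold above the 1-2 h sample (26.97 to 30.7) and 7.18-fold above the 3-4 h sample (7.00 to 7.37). *halo* then declined over several hours, and its 4-5 h, 5-6 h, 6-7 h, 7-8 h and 8-9 h samples were at 463, 387, 158, 39.3 and 8.54 RPM. The 12 samples from 10-11 h on held 15 reads together, and none of them was above 3.07 RPM.

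**Figure D1:**
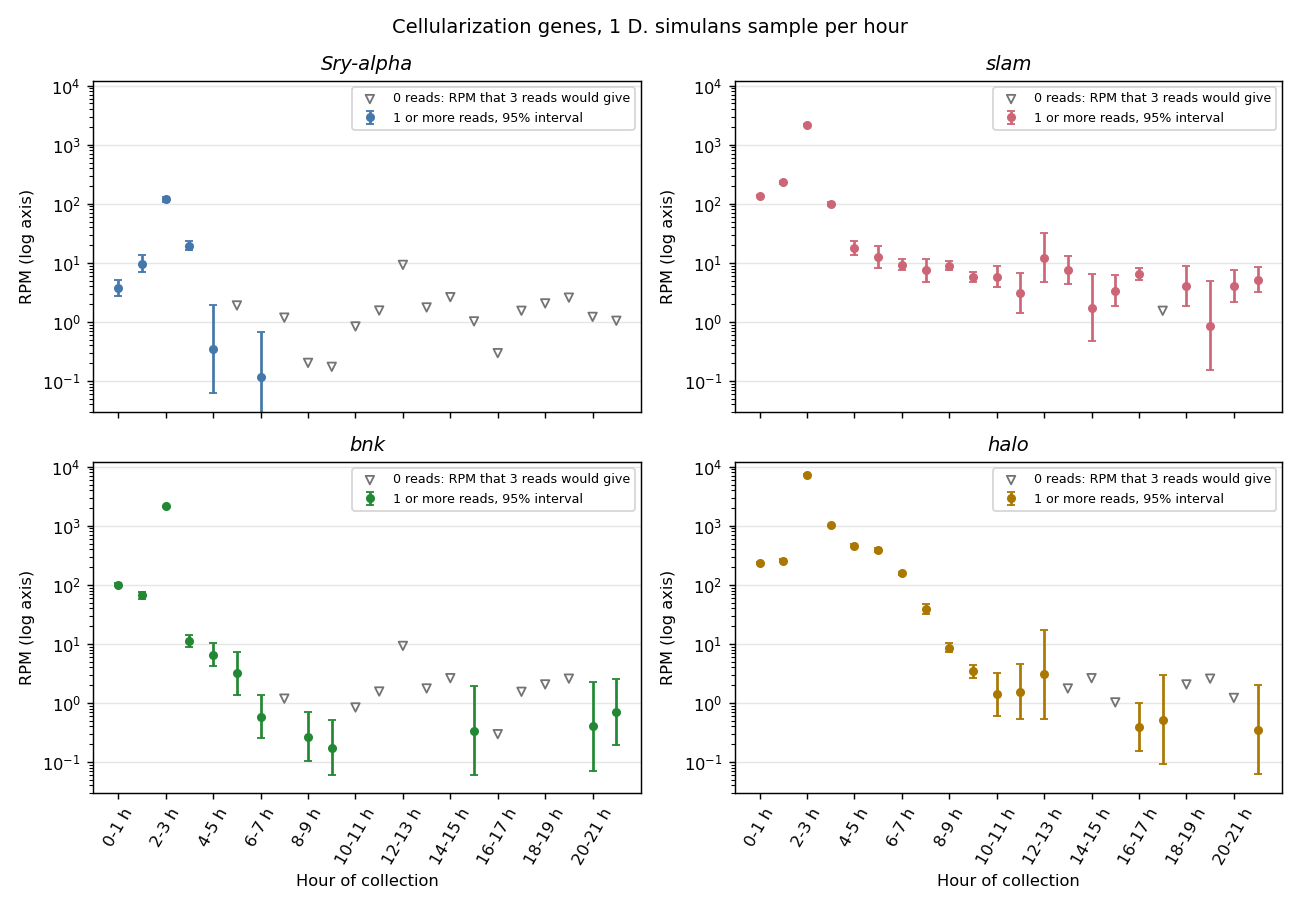
RPM of *Sry-alpha*, *slam*, *bnk* and *halo* (log axis) in the 22 hourly samples, 1 sample per hour. Filled points are samples with at least 1 read and carry 95% Wilson intervals, and open triangles stand at the RPM that 3 reads would give where 0 reads were found. All 4 genes are highest at 2-3 h, *slam* stays near a few RPM to the end, and *halo* declines over several hours.

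All 4 genes were highest at 2-3 h, and in each the interval at 2-3 h lay above the interval of every other hour. The next highest sample differed between them: it was 3-4 h for *halo* and *Sry-alpha*, 1-2 h for *slam* and 0-1 h for *bnk*. The ratio of the highest to the next highest sample was 21.4 for *bnk*, 9.47 for *slam*, 7.18 for *halo* and 6.08 for *Sry-alpha*. In every case only 1 hourly sample reached 50% of the highest level. Of the 7074 genes that reached 10 RPM in some sample, 687 (9.71%) were also highest at 2-3 h.

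By level at 2-3 h, the order was *halo*, *slam*, *bnk* and *Sry-alpha*. The intervals of *slam* and *bnk* overlapped there, so these neighbours in the order did not differ beyond counting error, whereas *halo* and *Sry-alpha* stood apart from both. At 0-1 h the order was *halo*, *slam*, *bnk* and *Sry-alpha* with no overlap of neighbouring intervals. At 3-4 h it was *halo*, *slam*, *Sry-alpha* and *bnk*, again without overlap. *Sry-alpha* and *bnk* thus changed places between these hours.

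The members differed in how fast they declined. As a percentage of its own 2-3 h level, the 3-4 h sample held 16.4% of *Sry-alpha* (exact interval 13.5% to 19.9%), 13.9% of *halo* (13.6% to 14.3%), 4.52% of *slam* (4.18% to 4.89%) and 0.523% of *bnk*. The intervals of *Sry-alpha* and *halo* overlapped and those of the others did not. One hour later the order had changed, because 4-5 h held 6.29% of *halo* (5.95% to 6.64%), 0.810% of *slam* (0.603% to 1.07%), 0.307% of *bnk* (0.185% to 0.480%) and 0.293% of *Sry-alpha*, the last on 1 read with an interval of 0.00739% to 1.64%. *Sry-alpha* was therefore among the slowest to decline into 3-4 h and was at the detection limit at 4-5 h. By 6-7 h, 2.14% of the *halo* peak (2.03% to 2.26%) was left, and the upper bounds were 0.534% for *slam*, 0.0637% for *bnk* and 0.552% for *Sry-alpha*.

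**Figure D2:**
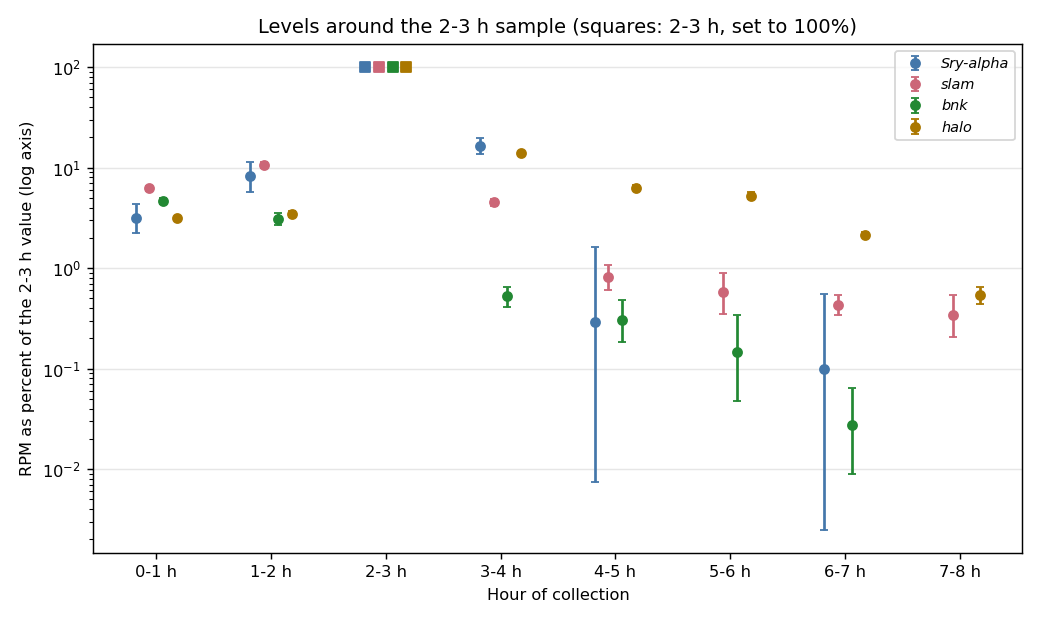
RPM of the 4 genes at 0-1 h to 7-8 h as percent of their own 2-3 h value (log axis), with exact 95% intervals of the ratio. Squares mark 2-3 h, set to 100%, and samples with 0 reads are not drawn. At 3-4 h the points spread from 0.523% for *bnk* to 16.4% for *Sry-alpha*, and from 4-5 h to 6-7 h *halo* lies above the others.

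To see how much of the whole embryonic signal fell at 2-4 h, the RPM of the 2-3 h and 3-4 h samples were divided by the sum over all 22 samples. This window was chosen from the timing of cellularization in *D. melanogaster*, and the labels here give hours after laying only. The share was 92.3% for *bnk*, 90.8% for *Sry-alpha*, 84.4% for *halo* and 82.5% for *slam*. The 7074 genes that reached 10 RPM had a median share of 8.16% (quartiles 1.88% and 14.2%) and a highest share of 93.6%. Counting the member itself, 2 of these genes (0.0283%) had a share at least as high as *bnk*, and 5 (0.0707%) as *Sry-alpha*. For *halo* there were 21 (0.297%) and for *slam* 24 (0.339%). The 2-3 h sample alone held 91.9% of *bnk*, 78.95% of *slam*, 78.02% of *Sry-alpha* and 74.1% of *halo*, against a median of 3.75% over the same genes. One sample therefore carries most of each share. When the 2-3 h sample was left out, 3-4 h held 58.4% of what remained for *Sry-alpha*, 39.8% for *halo*, 17.0% for *slam* and 5.91% for *bnk*, and the highest sample was then 3-4 h for the first pair, 1-2 h for *slam* and 0-1 h for *bnk*.

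**Figure D3:**
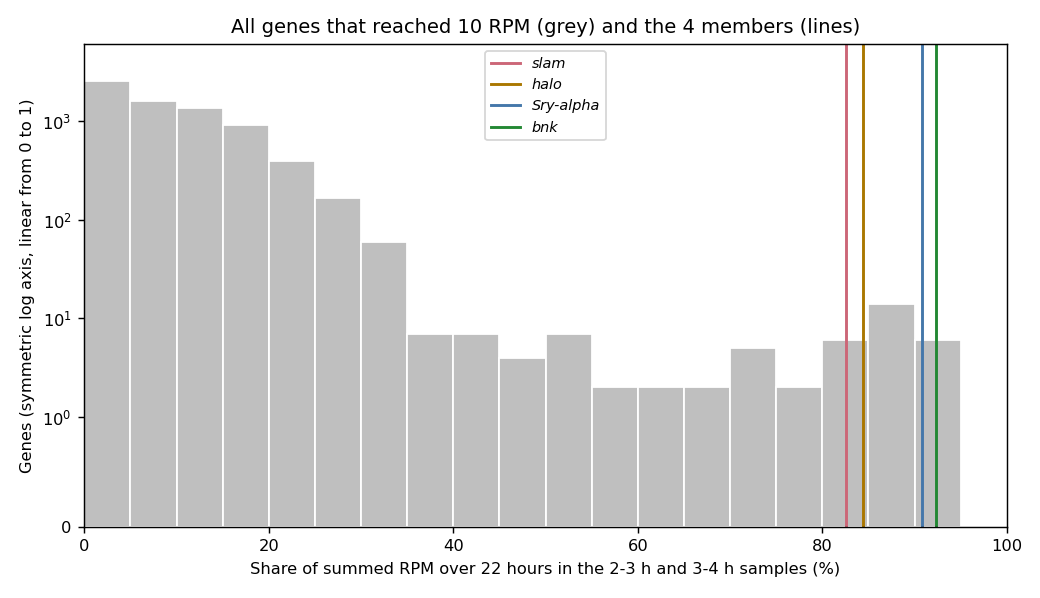
Number of genes (symmetric log axis) by the share of their summed RPM that fell in the 2-3 h and 3-4 h samples, for the 7074 genes that reached 10 RPM, with the 4 members as lines. The bulk of genes lies under 35%, and the members lie between 82.5% and 92.3%.

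With 1 sample per hour, neighbouring hours were set together as windows of 2 h, and the windows were compared in limma on log2(RPM + 1) for the 8249 genes that reached 2 RPM. Calls were made at a Benjamini-Hochberg adjusted p of 0.05 over all genes. All differences below are in log2(RPM + 1), with their SE. Since the pair of hours in a window are different ages and not replicates, the error of a window contains the change within it.

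Against 0-2 h, *halo* rose by 3.495 ± 0.78 at 2-4 h (limma adjusted p = 0.00525) and *Sry-alpha* rose by 2.798 ± 0.57 (limma adjusted p = 0.00264). The differences of *slam* (1.39 ± 1.00, limma adjusted p = 0.483) and *bnk* (0.97 ± 1.27, limma adjusted p = 0.810) were not called. Their windows overlapped, since the 3-4 h samples of both genes lay below their 0-1 h and 1-2 h samples, while the 2-4 h samples of *halo* and *Sry-alpha* all lay above the 0-2 h samples. Thus 2 of 4 members were called higher, where 3.67% of all genes were. Without the 0-1 h sample 0 members were called, although the differences were 3.42 for *halo* (limma adjusted p = 0.0599) and 2.21 for *Sry-alpha* (limma adjusted p = 0.0730). Without the 2-3 h sample the differences were 2.07 for *halo* (limma adjusted p = 0.0808) and 1.53 for *Sry-alpha*, and *Sry-alpha* alone was called higher. Without the 3-4 h sample all 4 were called, with 3.62 for *slam* (limma adjusted p = 0.0151) and 4.70 for *bnk* (limma adjusted p = 9.47e-05). Without the 2-3 h sample, *bnk* turned round and was called lower, by -2.75 (limma adjusted p = 0.000952), and *slam* was at -0.84 (limma adjusted p = 0.675). edgeR's quasi-likelihood test on the recovered reads gave log2 fold changes of 2.64 for *slam* (adjusted p = 0.0545) and 3.69 for *bnk* (adjusted p = 0.0506), larger than in limma and just short of the threshold.

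Against 2-4 h, *Sry-alpha* fell by 5.41 ± 0.57 at 4-6 h (limma adjusted p = 2.17e-05), *slam* fell by 4.87 ± 1.00 (limma adjusted p = 0.0124) and *bnk* fell by 4.85 ± 1.27 (limma adjusted p = 0.0408). The size for *Sry-alpha* depends on the pseudocount, because its 4-5 h and 5-6 h samples held 1 read and 0 reads. It was -6.97 with 0.25 RPM and -3.41 with 5 RPM, where *slam* was at -4.57, and *Sry-alpha* was called with either. *halo* was at -2.70 ± 0.78 (limma adjusted p = 0.0630) and was not called. Thus 3 of 4 members were called lower, where 1.42% of all genes were. All 4 genes were lower in both 4-6 h samples than in both 2-4 h samples. The *bnk* call lay close to the threshold and was lost in 19 of the 22 fits that left out 1 sample, and in fits with a pseudocount of 0.25 RPM (adjusted p = 0.0649) or 5 RPM (adjusted p = 0.0526). Its difference was -1.12 without the 2-3 h sample and -8.58 without the 3-4 h sample, and between -5.28 and -4.42 in the other fits that left out 1. *halo* was at -1.27 without the 2-3 h sample, and at -4.12 without the 3-4 h sample, where it was called (limma adjusted p = 0.00163). The *slam* call was lost without the 2-3 h sample (-2.64, limma adjusted p = 0.368) and without the 5-6 h sample (-4.64, limma adjusted p = 0.163). edgeR's quasi-likelihood test on the recovered reads called all 4, with an adjusted p of 0.0313 for *halo*.

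Against the mean of the 8 windows from 6-8 h to 20-22 h, all 4 members were called higher at 2-4 h, where 27.4% of all genes were. The differences were 9.91 ± 0.58 for *halo* (limma adjusted p = 1.18e-09), 7.16 ± 0.95 for *bnk* (limma adjusted p = 4.47e-06), 6.44 ± 0.75 for *slam* (limma adjusted p = 1.08e-06) and 5.62 ± 0.43 for *Sry-alpha* (limma adjusted p = 1.21e-08). The median over all genes was -0.13. Every fit that left out 1 sample kept all 4 calls, but the sizes moved: without the 2-3 h sample *bnk* was at 3.43 and *slam* at 4.21, and without the 3-4 h sample *bnk* was at 10.9. Because a pseudocount of 1 RPM was added, the differences of *Sry-alpha* and *bnk*, which had 0 reads in most of the late samples, depend on it. At 0.25 RPM and 5 RPM all 4 calls were also made.

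**Figure D4:**
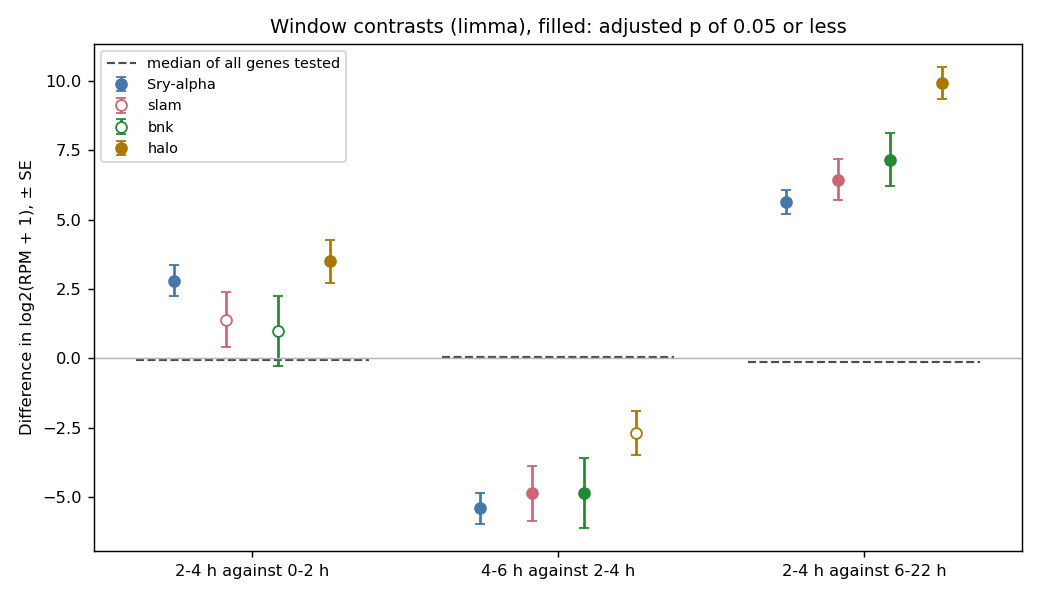
Differences in log2(RPM + 1) with SE from limma for the 4 genes in 3 comparisons of windows. Filled points have an adjusted p of 0.05 or less, and dashed lines are the median of the 8249 genes tested. *Sry-alpha* and *halo* are called in the first comparison, *Sry-alpha*, *slam* and *bnk* in the second and all 4 in the third.

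A smooth curve over the 22 hours (a natural cubic spline with 4 degrees of freedom, limma) was called for all 4 members. It was also called for 92.4% of all genes, so this count does not set the members apart. The highest fitted hour was 2-3 h for *halo* and 0-1 h for *slam*, *bnk* and *Sry-alpha*, although the measured values were highest at 2-3 h. The residual SD around the curve was 1.13 to 1.45 on the log2 scale, against a median of 0.56 over all genes. Of the single TSCs described below, those of *halo*, *bnk* and *Sry-alpha* were called by the same curve, as were 82.1% of all TSCs.

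The list of TSCs carries other gene numbers than the gene table, so the promoters of the members were found by their reads. For *bnk* and *halo*, the 22 read counts of the gene equalled those of exactly 1 gene in the TSC list, and each had 1 TSC. The *bnk* TSC lies at 3R:26660208-26660378 on the plus strand and is 171 bp wide, and the *halo* TSC lies at 2L:1492993-1493123 on the minus strand and is 131 bp wide (*D. simulans* release r1.4, counted from 1). Both are broad for this list, whose median width is 34 bp: 9.08% of the 25410 TSCs were at least as wide as that of *bnk*, and 15.3% as wide as that of *halo*.

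For *Sry-alpha* and *slam* no gene of the TSC list had the same counts, and the gene with the most similar counts was taken, which makes these positions less certain. The *Sry-alpha* match is a single TSC of 21 bp at 3R:25533701-25533721 on the plus strand, which held 756 reads against the 779 of the gene. It lies between the TSCs of the genes numbered FBgn0003511, 1412 bp upstream, and FBgn0003512, 2051 bp downstream, both on the same strand. These neighbours did not share the pulse. The TSC of *Sry-alpha* had 90.9% of its summed RPM at 2-4 h, against 16.4% for the upstream and 17.3% for the downstream neighbour, which were highest at 1-2 h with 46.1 and 44.4 RPM. A TSC on the minus strand 1658 bp upstream reached 422 RPM at 4-5 h and had 10.7% of its signal at 2-4 h. No other TSC was listed within 3000 bp of *halo*, and the one near *bnk*, 2310 bp downstream on the minus strand, had 0.2996% of its signal at 2-4 h.

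The *slam* match held 14005 reads against the 14027 of the gene, in 5 TSCs on the plus strand of 2L. Of these reads, 84.5% lay in a TSC of 21 bp at 2L:6177704-6177724, called the downstream TSC here, and 14.5% in a TSC of 100 bp at 2L:6176530-6176629, called the upstream TSC, with a gap of 1075 bp between them. The remaining 3 TSCs held 29, 84 and 27 reads. The pulse of *slam* came from the downstream TSC, and its persistence from the upstream one. In the first 5 hourly samples, the downstream TSC was at 58.9, 139, 2116, 84.1 and 3.14 RPM. The upstream TSC was at 76.6, 84.2, 67.3, 13.8 and 14.3 RPM in the same hours, and its intervals at 0-1 h (71.5 to 82.01), 1-2 h (75.4 to 94.2) and 2-3 h (60.4 to 75.1) overlapped except between 1-2 h and 2-3 h.

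For shares of windows, the reads of all samples in a window were pooled, so deeper samples weigh more. At 0-2 h the 0-1 h sample gave 1464 *slam* reads and the 1-2 h sample 853. The downstream TSC took 49.1% of the pooled *slam* reads at 0-2 h (Wilson interval 47.04% to 51.1%), 95.7% at 2-4 h (95.3% to 96.1%), 12.7% at 4-6 h (6.81% to 22.4%), 9.37% at 6-10 h and 1.961% at 10-22 h. The upstream TSC took 48.5% at 0-2 h, 3.72% at 2-4 h, 84.5% at 4-6 h, 87.9% at 6-10 h and 92.8% at 10-22 h. Even within 0-2 h the balance shifted, since the downstream TSC held 42.8% (40.2% to 45.3%) at 0-1 h and 59.9% (56.6% to 63.1%) at 1-2 h. At 3-4 h, when the total had dropped to a level below that of 0-1 h, the downstream TSC still held 84.8% (81.8% to 87.3%).

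**Figure D5:**
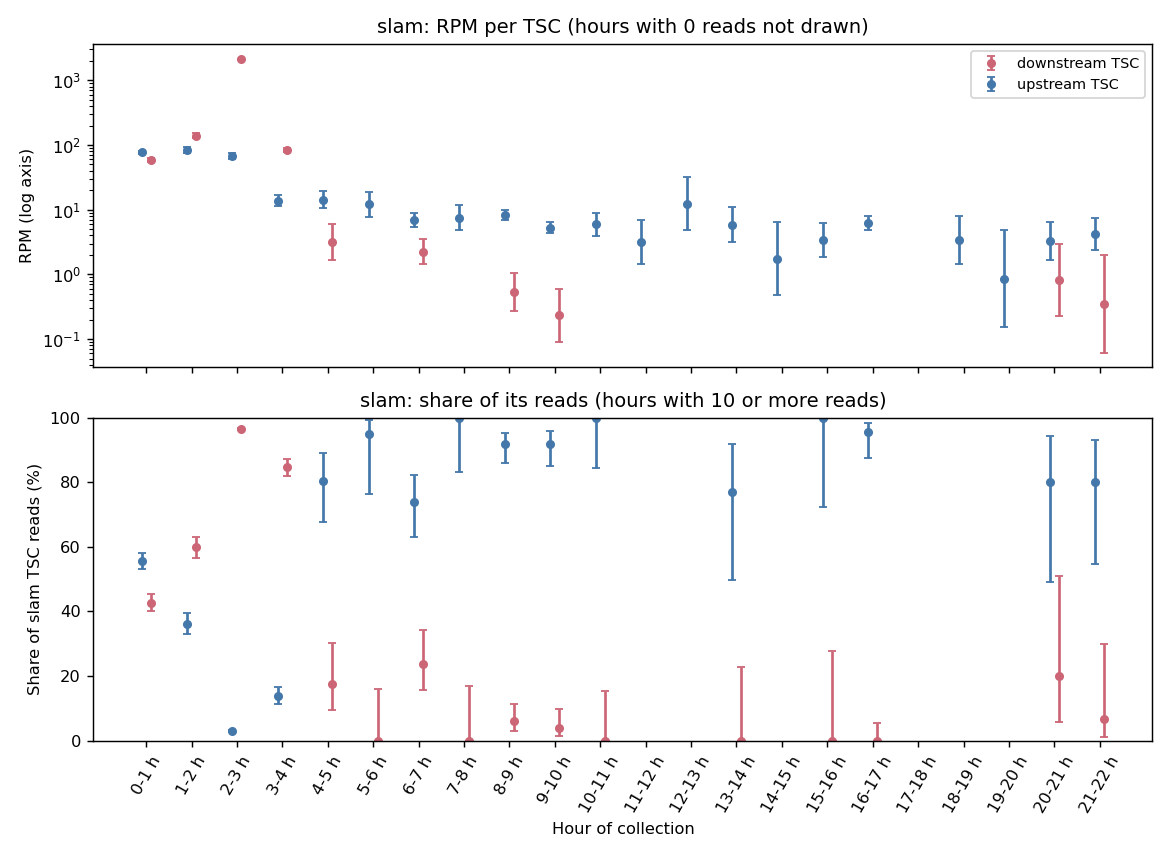
The upstream and downstream TSCs of *slam* by hour: RPM (top, log axis, hours with 0 reads not drawn) and share of all *slam* TSC reads (bottom, hours with at least 10 reads), with 95% Wilson intervals. The downstream TSC rises to 2116 RPM and 96.4% of reads at 2-3 h, and from 4-5 h on the upstream TSC holds most reads at a few RPM.

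Fitted over all 20118 TSCs that reached 2 RPM, the downstream TSC fell by 7.71 ± 0.95 at 4-6 h against 2-4 h (limma adjusted p = 8.91e-05), where 1.14% of TSCs were called lower, and the upstream TSC was at -1.17 ± 0.76 (limma adjusted p = 0.529). At 2-4 h against 0-2 h, where 3.44% of TSCs were called higher, neither was called, with 2.21 ± 0.95 for the downstream TSC (limma adjusted p = 0.197) and -1.35 ± 0.76 for the upstream TSC (limma adjusted p = 0.399). The difference between the pair was then tested, after these values were seen, for the strongest and the second strongest TSC of every gene with at least 2 TSCs past the filter, 3065 genes in all. The log2 difference of downstream minus upstream TSC was 3.57 ± 0.89 higher at 2-4 h than at 0-2 h (limma adjusted p = 0.0188), where 1.83% of genes were called in this direction. It fell by 6.53 ± 0.89 at 4-6 h against 2-4 h (limma adjusted p = 0.000117), where 0.326% were. The second call held in every fit that left out 1 sample, with an adjusted p of at most 0.0186, and the first was lost without the 0-1 h sample (3.02, adjusted p = 0.271), the 1-2 h sample (4.11, adjusted p = 0.0521) or the 2-3 h sample (2.35, adjusted p = 0.180).

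The authors also deposited a smoothed Z-score per gene at 110 points, on a time axis aligned to the *D. melanogaster* series, so that its points are not hours of the *D. simulans* collection. There *slam* and *bnk* were highest at point 11 and *Sry-alpha* and *halo* at point 12.

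Over the 22 samples, Pearson's correlation of log2(RPM + 1) between members was highest for *slam* and *bnk* (0.936) and lowest for *Sry-alpha* and *halo* (0.752), with 0.917 for *Sry-alpha* and *bnk*, 0.910 for *Sry-alpha* and *slam*, 0.835 for *slam* and *halo* and 0.806 for *bnk* and *halo*. These are descriptions over hours that share the libraries and their depth. Among all genes that reached 10 RPM, the most similar was FBgn0038566 for *Sry-alpha* (0.998, with 179 RPM at 2-3 h and 18.5 RPM at 3-4 h), FBgn0035570 for *slam* (0.943, with 798 RPM at 2-3 h), FBgn0035572 for *bnk* (0.976, with 97.1 RPM at 2-3 h and 1.18 RPM at 3-4 h) and FBgn0026361 for *halo* (0.968). The first 3 were highest at 2-3 h and the last was highest at 3-4 h, with 175 RPM there and 86.7 RPM at 2-3 h. A correlation of at least 0.9 was reached by 1.54% of these genes for *halo*, 0.382% for *bnk*, 0.353% for *slam* and 0.283% for *Sry-alpha*.

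Genes listed for furrow machinery, cell cycle timing, gastrulation and junction proteins were looked up by number. They are given as counts, because no table used here pairs these numbers with names and the assignment to lists could not be checked against one. Of all genes, 3.67% were called higher and 825 of 8249 lower at 2-4 h against 0-2 h, and 1.42% lower at 4-6 h against 2-4 h. Of 12 numbers for furrow machinery, 10 were tested: 1 was higher at 2-4 h than at 0-2 h and 0 were lower, and the median difference was 0.33, with -0.08 over all genes. At 4-6 h against 2-4 h, 0 of the 10 were called, and the median was 0.12, with a range of -0.64 to 0.67. Of 5 numbers for cell cycle timing, 4 were tested, 2 were higher at 2-4 h and 1 was lower at 4-6 h, with medians of 1.13 and -0.85. Of 3 numbers for gastrulation, 2 were higher at 2-4 h and 0 were called at 4-6 h, with medians of 3.501 and -0.60. Of 4 numbers for junction proteins, 2 were tested and 0 were called in either comparison.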

How the data were processed

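The authors aligned reads with STAR (version not given in the sources used here) to release r1.4 of the *D. simulans* genome. TSCs come from 1 round of peak calling on reads of all hours with the authors' software, without rDNA. The authors deposited RPM per TSC and per gene, and per sample the values of the gene table add up to 62.2% to 86.1% of 1000000. They also deposited a smoothed Z-score per gene, aligned to the *D. melanogaster* series and used here for its highest point only, and a whole-number score per TSC that was not interpreted. The hourly samples carried barcodes and were sequenced from 1 joint library.

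Reads were recovered from RPM as whole multiples of the smallest step (100% of values within 0.01 reads). Members and lists were chosen with earlier results of these data known, and the gene numbers matched 0 entries of the RefSeq table for Prin_Dsim_3.1. The named genes are the members and, for each, the gene with the highest Pearson correlation among those that reached 10 RPM. limma 3.58.1 was run with its trend option on log2(RPM + 1) of genes and TSCs that reached 2 RPM, as cell means of 11 windows of 2 h or as a spline, with Benjamini-Hochberg adjustment at 0.05 over the whole table. The comparison of TSC pairs was added after the TSC values were seen. Neighbouring hours stand in for replicates, so p-values measure the scatter between hours. edgeR 4.0.16 on recovered reads and DESeq2 1.42.0 size factors were alternatives. Fits were tested on simulated data. The planned motif search was not run and sequences were not analysed here.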

Additional observations from a re-analysis of the deposited data

How the results depend on the processing

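The difference at 2-4 h against 6-22 h stayed called for all 4 members under every alternative, and all 4 kept 2-3 h as the highest hour under TMM factors, DESeq2 size factors, thinning and without the 12-13 h sample. For 2-4 h against 0-2 h, 303 genes were called higher, with 462 under DESeq2 size factors and 76 to 512 when 1 sample was left out, and 0 to 4 members were then called. In these fits *slam* and *bnk* changed sign without the 2-3 h sample (-0.84 and -2.75), and without the 3-4 h sample they were at 3.62 and 4.70. The lone sample left in such a window is assumed to vary like the others. For 4-6 h against 2-4 h, 117 genes were called lower, with 16 to 620 and 1 to 4 members when 1 sample was left out. Genes called higher were 26.9% of calls at 2-4 h against 0-2 h, with 39.9% under TMM factors and 52.6% under DESeq2 size factors. At 4-6 h against 2-4 h, 143 genes were called higher and 117 lower, and under TMM factors genes called higher were 41.6% of calls. DESeq2 size factors moved the median of all genes at 2-4 h against 0-2 h to 0.10, with -0.08 under scaling by total reads, and at 2-4 h against 6-22 h to -0.32, with -0.13 under total reads and -0.10 under TMM factors. No call of a member was lost with either scaling, and *halo* was also called lower at 4-6 h with TMM factors (adjusted p = 0.0477). The cause of these shifts was not tested.

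The share at 2-4 h of *Sry-alpha* was 92.3% with TMM factors and 92.8% with DESeq2 size factors, in place of 90.8%. Both scalings use the same reads, so counting error does not measure such shifts. With TMM and with DESeq2 size factors it was 84.7% and 84.6% for *slam* and 93.3% and 93.7% for *bnk*. For *halo* it was 85.9% and 85.6% in that order. Thinning gave 91.6% for *bnk*, but on far fewer reads, with 762 at 2-3 h in place of 10300. Whether this last shift exceeds the counting error of the thinned reads was not tested. Without the 2-3 h sample, a setting chosen after seeing the data, the shares were 58.4% for *Sry-alpha*, 17.0% for *slam*, 5.91% for *bnk* and 39.8% for *halo*, and the highest sample began at 3 h, 1 h, 0 h and 3 h in that order. Identical counts placed 2 members on TSCs, and the best correlation of counts placed all 4. No paired analysis was possible because each hour has 1 sample. Depth limits the late hours most: at 12-13 h, the floor of 3 reads is 9.22 RPM.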
